A study of Mus musculus with 3 samples.

Results

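Toll-like receptors, the proteins that pass on their signal and the first kinases below them were described in macrophages exposed to lipid A, as 41 genes chosen by symbol out of 55536 mouse genes quantified. The genes comprise 12 Toll-like receptors, 6 accessory proteins, 4 adaptors, 4 IRAK kinases, 5 kinases or subunits of the IKK and TBK1 family, 6 genes of the TAK1, RIPK1 and TPL2 branch, and 4 regulators. Each symbol matched a gene. The cells were primary macrophages grown from the bone marrow of C57BL/6J mice and treated with 100 ng/mL of the stimulus for 180 min, with 3 biological replicates of this single group. The age and sex of the mice were not recorded in the labels. The description label calls the stimulus lipid A, the anchor of bacterial lipopolysaccharide and the ligand of Toll-like receptor 4, while the treatment label calls it lipoprotein A, and the name lipid A is used here. The replicates carry the same donor identifier, so the spread between them is the spread between these samples and may be technical. No unstimulated cells were analysed here, so every value is a level or a difference between replicates, and none is a response to lipid A.

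Toll-like receptors bind conserved microbial molecules. Those of the cell surface recognise mainly lipids and proteins of the microbial envelope, and those of endosomes recognise nucleic acids. Most receptors recruit the adaptor MyD88 and through it the IRAK kinases, which activate the TAK1 complex and the IκB kinases, and so NF-κB and MAP kinases. Toll-like receptor 3, and Toll-like receptor 4 after uptake, signal through the adaptor TRIF to TBK1 and IKKε, the kinases of the interferon regulatory factor IRF3. Macrophages are a classical site of this pathway, and several of its components are themselves products of genes that NF-κB or interferon induce.

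The closest relatives among the receptors are Tlr1 (chromosome 5, 64924679 to 64933563, mm10, minus strand) and Tlr6 (chromosome 5, 64952031 to 64960097, minus strand), neighbouring genes whose products each pair with the Tlr2 protein. Their main transcripts share coding sequence, which bears on how reads can be told apart between them, so the same 120 coding bases of each are shown. They are coding bases 1408 to 1527 of Tlr1 and 1447 to 1566 of Tlr6 (GENCODE M21), and capitals mark the only base that differs. That base is the substitution C60T, with the Tlr1 base first and positions counted from 1 at the 5′ end of the stretch.
Tlr1: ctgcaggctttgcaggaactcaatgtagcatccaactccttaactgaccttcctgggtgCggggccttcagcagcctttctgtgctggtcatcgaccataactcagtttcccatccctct
Tlr6: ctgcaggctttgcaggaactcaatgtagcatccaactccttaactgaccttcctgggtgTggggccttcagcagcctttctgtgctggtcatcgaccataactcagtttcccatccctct
The longest run of identical bases between these transcripts, which begins just after that base, measured 229 bases. Of 2684 windows of 100 bases in the Tlr1-201 transcript, 259 (9.65%) occurred unchanged in Tlr6-201, where they made up 7.24% of 3578 windows. The authors' deposited table gives a posterior standard deviation of the estimated count, which measures how freely reads could be moved between genes. It was 4.85, 4.32 and 6.03 counts for Tlr1 in replicates 1, 2 and 3, beside estimated counts of 5194, 5683 and 9366. For Tlr6 it was 4.85, 4.32 and 6.02 counts beside 1271, 1546 and 2559. In each library the deposited measure was small beside the count.

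Irak3 encodes IRAK-M, an IRAK family protein without the usual kinase activity that dampens signalling from the receptors. It has transcripts that begin at separate first exons, and the results below turn on their shares, so the first 60 coding bases of each are shown with the start codon in capitals. Irak3-201 begins its coding part in its own first exon on chromosome 10 at position 120201459 (mm10, minus strand). Irak3-205 begins upstream, but its coding part starts further along the gene, at position 120182565.
Irak3-201: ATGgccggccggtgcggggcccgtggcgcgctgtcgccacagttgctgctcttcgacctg
Irak3-205: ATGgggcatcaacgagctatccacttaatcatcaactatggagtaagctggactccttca
The annotated coding parts hold 1827 bases in Irak3-201 and 1551 bases in Irak3-205. The shorter one equals the end of the longer one, in the same reading frame and without its first 92 codons.

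The adaptor gene Myd88 carries, just before its main start site, a match to GAAANNGAAA, a core of the interferon-stimulated response element. The 120 bases before that start (RefSeq sequence, GRCm38.p6, minus strand, chr9:119340042-119340161) are given 5′ to 3′ with the match, at bases 17 to 8 before the start of Myd88-201, in capitals.
Myd88: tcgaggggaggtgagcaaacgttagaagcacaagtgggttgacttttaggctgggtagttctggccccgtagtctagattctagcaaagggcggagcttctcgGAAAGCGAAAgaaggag
RefSeq promoters were at hand for 30 of the 41 genes, with 41 promoters in all, against 32851 promoters for 27025 genes. A gene was counted if any of its promoters matched, so genes with more promoters had more windows searched. For 31 of those 41 promoters the bases after the RefSeq start lay in an annotated transcript of the gene. Searched on both strands over the 250 bases before the RefSeq start, GAAANNGAAA occurred in 3 of these 30 genes, namely Myd88, Tlr6 and Tlr11, against 3.46% of 27025 genes. The Tlr6 match belongs to a RefSeq window inside the gene (chromosome 5, 64959117 to 64959416), past the first exon of Tlr6-201 (64959934 to 64960047). GGGNNNNNCC, a loose form of the NF-κB site, occurred in 18 of the 30 genes, against 48.7% of all genes. These matches are letters in a window and do not show that a factor was bound.

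The libraries held 24450338, 34641026 and 60595742 expected counts (estimated fragment counts) of mouse genes in replicates 1, 2 and 3, of which the 41 genes took 0.719%, 0.718% and 0.751%. Replicate 3 is the deepest and its values carry the least counting error. All 10 macrophage markers examined were at 1 TPM or more in every replicate, among them Adgre1, Csf1r and Cd68. TPM is the share of all transcripts, scaled by transcript length, so genes can be compared with each other. Of 12 neutrophil markers, 5 reached 1 TPM in every replicate, and the summed level of the 12 was 161, 778 and 102 TPM in replicates 1, 2 and 3. By mean the highest of them was S100a9, at 47.1, 432 and 25.98 TPM, while Csf3r, at 67.8, 48.7 and 46.6 TPM, was not raised in replicate 2 and Ly6g was at 0 in every replicate. Of 6 neutrophil markers that passed the filter on low counts, 5 were highest in replicate 2, as were 6 of 7 for dendritic cells and 3 of 4 for stroma and endothelium. By sum, replicate 2 was the lowest for the dendritic list, at 955, 551 and 707 TPM, mostly from Bst2. The stromal and endothelial list summed to 19.3, 11.2 and 20.6 TPM, mostly from Kdr, and was also lowest in replicate 2. Of the markers of other cells, 3 of 12 for dendritic cells, 1 of 10 for B cells, 1 of 10 for T and natural killer cells, 1 of 10 for stroma and endothelium and 1 of 8 for mast cells reached 1 TPM in all 3 replicates. The highest in each of these lists were Bst2, Cd79b, Lck, Kdr and Hdc, of which Bst2 is itself a known interferon-induced gene. In bulk RNA, fewer cells of a type and less RNA per cell cannot be told apart.

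Most of the pathway was expressed. Taking a level of at least 1 TPM in each replicate as detection, 36 of the 41 genes (87.8%) were detected, against 42.6% of all protein-coding genes. The 5 that were not are Tlr5, Tlr11, Tlr12, Lbp and Sigirr. Of the 36, 25 lay above the median detected gene (14.6 ± 0.535 TPM, SD, n = 3) in every replicate and 9 lay below it in every replicate. At 100 TPM or more in every replicate stood 11 of them, which is 30.6% of the detected genes of the pathway, against 11.4% of all detected genes. By role, the median level was highest for the accessory proteins, at 289 ± 32.1 TPM (SD, n = 3), and lowest for the adaptors, at 11.7 ± 0.460 TPM.

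**Figure D1:**
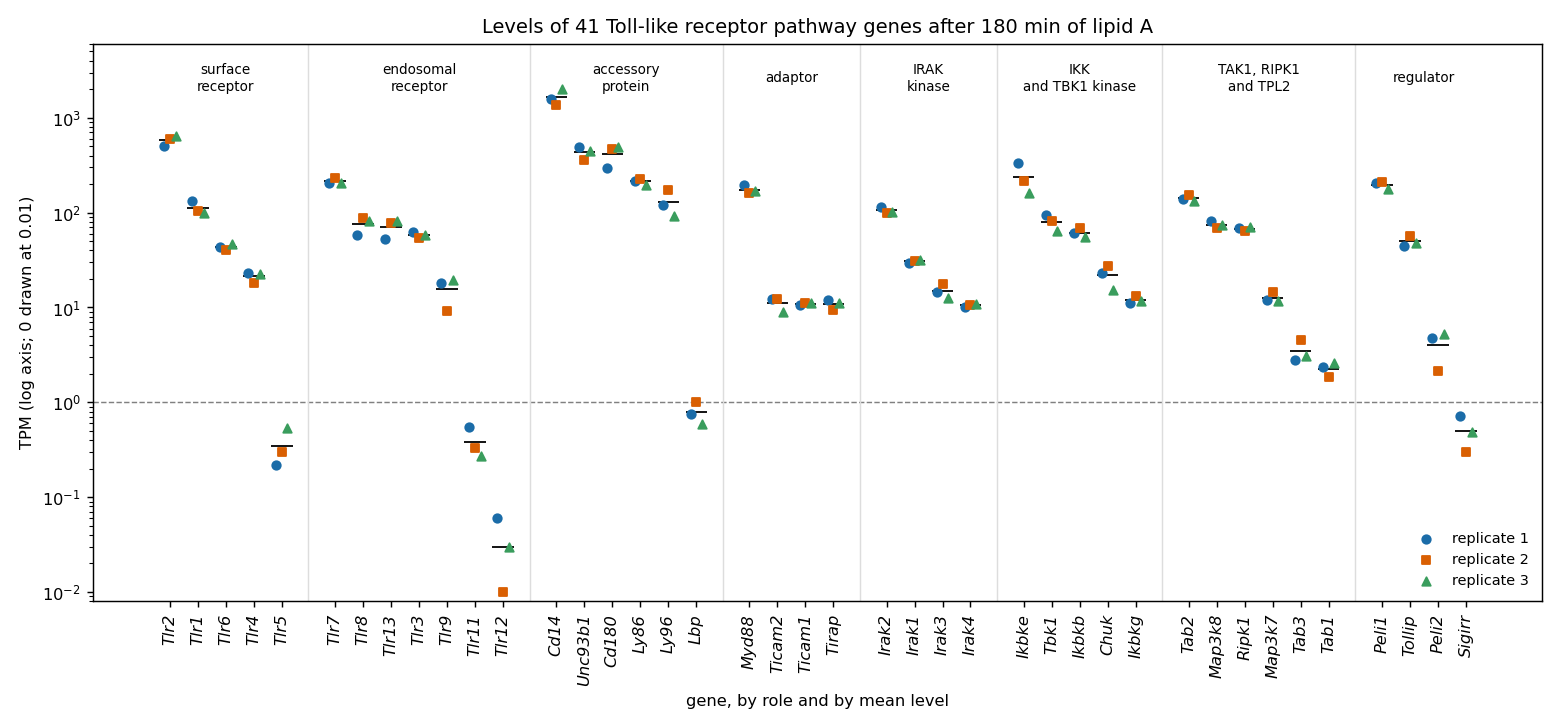
TPM of each of the 41 genes on a log axis, with a point for each replicate and a line at the mean of 3, genes grouped by role and sorted by mean level. The dashed line marks 1 TPM, and Tlr5, Tlr11, Tlr12, Lbp and Sigirr have at least 1 replicate below it.

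Among the receptors of the cell surface, Tlr2, which recognises bacterial lipoproteins together with Tlr1 or Tlr6, stood at 506, 592 and 644 TPM in replicates 1, 2 and 3 (581 ± 69.4, SD, n = 3). Tlr1 stood at 133, 103 and 100 TPM, and Tlr6 at 43.8, 40.4 and 47.0 TPM. Tlr2 therefore exceeded either of its partners in every replicate. The log2 ratio of Tlr2 to Tlr1 was 2.37 ± 0.40 (SD, n = 3) and that of Tlr2 to Tlr6 was 3.72 ± 0.18. Tlr1 exceeded Tlr6 by 1.35 ± 0.26 on the log2 scale.

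Tlr4, the receptor of lipid A, was lower, at 23.4, 18.3 and 22.6 TPM (21.4 ± 2.71, SD, n = 3), without overlap with Tlr2, Tlr1 or Tlr6. The lead of Tlr6 over Tlr4 rests on a short Tlr6 transcript, described with the transcript shares. Tlr5, the flagellin receptor, stood at 0.22, 0.30 and 0.53 TPM, from 9, 20 and 57 counts. It was below detection here, and its replicates were 2.63-fold apart in CPM (counts scaled to library size).

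The receptors of endosomes were led by Tlr7, which recognises single-stranded RNA, at 205, 232 and 205 TPM (214 ± 15.6, SD, n = 3). Tlr8, its neighbour on the X chromosome and relative, stood at 57.5, 88.1 and 81.1 TPM, below Tlr7 in every replicate, with a log2 ratio of Tlr7 to Tlr8 of 1.52 ± 0.27. Tlr13, which in mice recognises bacterial ribosomal RNA, stood at 52.3, 78.3 and 81.4 TPM. Replicate 1 was the lowest for Tlr8 and for Tlr13.

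Tlr3, the receptor of double-stranded RNA, stood at 62.6, 54.3 and 57.6 TPM. In CPM its replicates were 1.24-fold apart, the closest after Tlr7 (1.05-fold) among the detected endosomal receptors. Tlr9, the receptor of CpG DNA, stood at 18.1, 9.28 and 19.4 TPM, with replicate 2 well below the others. The log2 ratio of Tlr7 to Tlr9 was 3.84 ± 0.68. Tlr11 and Tlr12, which recognise a profilin of protozoa in mice, were not detected. Tlr11 stood at 0.55, 0.33 and 0.27 TPM, and Tlr12 had 3, 0 and 4 counts, in all 7 counts with an exact 95% Poisson interval of 2.81 to 14.4 that covers counting error only.

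Sorted by mean level, the receptors ran Tlr2, Tlr7, Tlr1, Tlr8, Tlr13, Tlr3, Tlr6, Tlr4, Tlr9, Tlr11, Tlr5 and Tlr12. Of the neighbours in this order, Tlr8 and Tlr13, Tlr13 and Tlr3, and Tlr11 and Tlr5 did not keep their order in every replicate. The other neighbours kept it in all 3, with a mean difference beyond the SD. The smallest of those differences was Tlr3 over Tlr6, at 0.41 ± 0.11 on the log2 scale. Tlr1 over Tlr8, at 0.58 ± 0.55, and Tlr4 over Tlr9, at 0.52 ± 0.40, came closest to their SD.

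Of the proteins that assist the receptors, Cd14, Ly96 and Unc93b1 exceeded the receptors they serve here. Cd14, the co-receptor that hands lipopolysaccharide to the Tlr4 complex, had the highest level of the 41 genes, at 1583, 1364 and 2008 TPM (1652 ± 328, SD, n = 3). Ly96 encodes MD-2, the subunit that holds lipid A in the Tlr4 complex, and stood at 121, 173 and 92.6 TPM. Its replicates did not follow those of Cd14, since replicate 2 was the highest for Ly96 and the lowest for Cd14.

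Ly96 exceeded Tlr4 in every replicate, by 2.55 ± 0.62 on the log2 scale (SD, n = 3), and Cd14 exceeded Ly96 by 3.71 ± 0.73. Lbp, the serum protein that carries lipopolysaccharide to Cd14 and is made mainly by liver, stood at 0.76, 1.00 and 0.59 TPM and was below detection. The lipid A receptor system was thus measured here as abundant Cd14 transcripts, fewer of Ly96, fewer still of Tlr4 and few of Lbp.

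Cd180, a Tlr4 relative that lacks the signalling domain, stood at 297, 472 and 489 TPM, and exceeded Tlr4 by 4.26 ± 0.53 on the log2 scale. Ly86, which encodes MD-1, the partner of Cd180, stood at 216, 226 and 197 TPM, and the log2 ratio of Ly86 to Cd180 was -0.94 ± 0.44. Ly86 exceeded Ly96, its counterpart in the Tlr4 complex, by 0.77 ± 0.36, with every replicate on the same side. Unc93b1, which carries the nucleic acid receptors to endosomes, stood at 495, 356 and 443 TPM, above every endosomal receptor in each replicate.

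Of the adaptors, Myd88 was the most abundant, at 194, 162 and 170 TPM (175 ± 16.8, SD, n = 3). The other adaptors lay close to each other. Tirap, which bridges Myd88 to Tlr2 and Tlr4, stood at 11.9, 9.50 and 11.2 TPM. Ticam1, which encodes TRIF, stood at 10.5, 11.1 and 11.3 TPM, and Ticam2, which encodes TRAM, the bridge from Tlr4 to TRIF, stood at 12.3, 12.2 and 9.04 TPM.

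Myd88 exceeded Ticam1 by 3.98 ± 0.18 and Tirap by 4.0 ± 0.08 on the log2 scale (SD, n = 3). Ticam2 and Ticam1 were the only pair of 24 examined whose difference did not exceed its spread, with a log2 ratio of 0.02 ± 0.29 and a p of 1 in an exact two-sided sign-flip test over replicates. With 3 replicates that exact test cannot go below p = 0.25, so no pair could pass a threshold of 0.05. In the other 23 pairs all replicates lay on the same side and the mean exceeded the SD. In 21 pairs the mean difference was above 2-fold and in 10 it was above 10-fold.

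**Figure D2:**
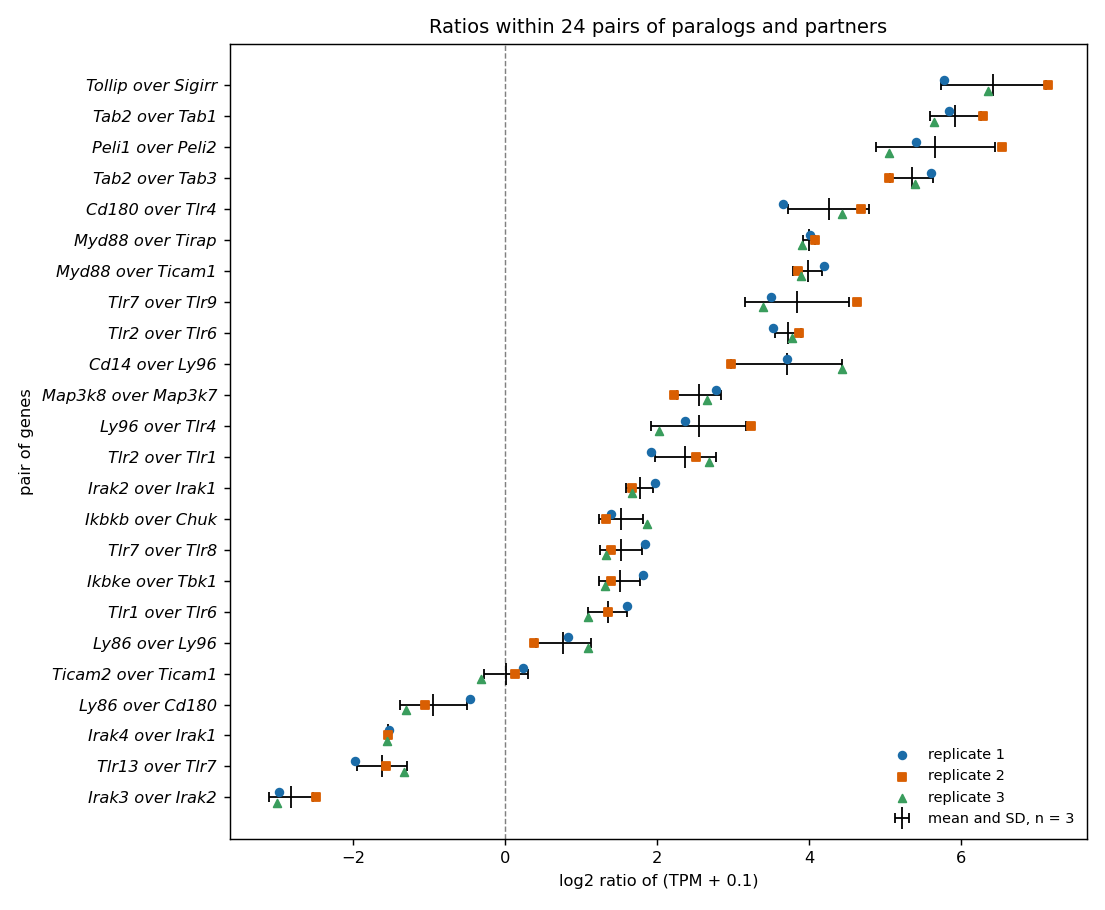
Log2 ratio of (TPM + 0.1) for 24 pairs of paralogs or partners, first gene over second, with a point for each replicate and bars for the mean and SD of 3. Only Ticam2 over Ticam1 crosses the dashed line at a ratio of 1, and Irak4 over Irak1 has the smallest spread, at 0.01 on the log2 scale.

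Among the IRAK kinases, Irak2 led at 115, 99.9 and 102 TPM, followed by Irak1 at 29.1, 31.3 and 32.0 TPM. Irak3, the dampening member, stood at 14.5, 17.7 and 12.6 TPM. Irak4, the kinase that starts the cascade in the MyD88 complex, was the lowest, at about 10, 10.7 and 10.8 TPM. Irak2, which sustains signalling after Irak1, exceeded Irak1 by 1.77 ± 0.18 on the log2 scale (SD, n = 3). The log2 ratio of Irak4 to Irak1 was -1.54 ± 0.01, and that of Irak3 to Irak2 was -2.82 ± 0.29.

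The kinases of the IKK and TBK1 family were led by Ikbke, which encodes IKKε and is known to be inducible, at 338, 215 and 161 TPM (238 ± 90.4, SD, n = 3). Replicate 1 was the highest for Ikbke and replicate 3 the lowest. Genes annotated on the opposite strand overlap Ikbke, and the strand setting was not given. The deposited posterior standard deviation of the Ikbke count was 0 in every replicate. Tbk1, the constitutive relative of IKKε, averaged 80.6 ± 15.4 TPM, and the log2 ratio of Ikbke to Tbk1 was 1.51 ± 0.27.

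In the classical IκB kinase, the catalytic subunit IKKβ (Ikbkb) averaged 61.6 ± 6.25 TPM and its relative IKKα (Chuk) 21.9 ± 6.06 TPM (SD, n = 3). Their log2 ratio, Ikbkb to Chuk, was 1.53 ± 0.29. The regulatory subunit NEMO (Ikbkg) was the lowest of the family, at 11.1, 13.2 and 11.6 TPM. Its gene overlaps G6pdx, a housekeeping gene of the pentose phosphate pathway. Other annotated genes also overlap Tirap, Myd88, Irak2, Irak3, Irak4, Ripk1, Cd180, Ticam2, Ikbkb and Tlr3. Among these the deposited posterior standard deviation was largest for Ripk1, at 4.90, 5.37 and 6.74 counts beside 3529, 4860 and 9028. For Ticam2 it was 4.52, 2.78 and 3.76 counts beside 777, 1109 and 1389, a larger part of the count than for Ripk1. For Irak3 and Ikbkb it was 0 in every replicate.

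In the TAK1 branch the ubiquitin-binding subunit Tab2 stood highest, at 140, 153 and 134 TPM, and the activator subunit Tab1 lowest, at 2.34, 1.85 and 2.58 TPM. Tab3, a relative of Tab2, averaged 3.45 ± 0.930 TPM, and the log2 ratio of Tab2 to Tab3 was 5.35 ± 0.28 (SD, n = 3). The kinase TAK1 itself (Map3k7) averaged 12.7 ± 1.68 TPM. Map3k8, which encodes TPL2, the kinase that drives ERK activation below the receptors, averaged 74.8 ± 6.43 TPM and exceeded Map3k7 by 2.55 ± 0.29 on the log2 scale. Ripk1, a kinase that the TRIF adaptor recruits, averaged 67.6 ± 3.13 TPM.

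The regulators differed widely. Peli1, a ubiquitin ligase that acts on IRAK proteins, stood at 207, 209 and 177 TPM, and its paralog Peli2 at 4.81, 2.14 and 5.25 TPM. Tollip, which binds IRAK1 and restrains it, averaged 49.7 ± 6.43 TPM (SD, n = 3). Sigirr, an inhibitory receptor of the interleukin 1 receptor family, stood at 0.71, 0.30 and 0.49 TPM, from 14, 5 and 23 counts. The log2 ratio of Tollip to Sigirr was 6.42 ± 0.69, but it moves with the constant added to low TPM. With 1 TPM added in place of 0.1 it was 5.08.

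Other genes of the pathway were measured beside these. All 12 genes of the TRAF6, ubiquitin and linear ubiquitin group were detected, with a median of 59.6 ± 11.3 TPM (SD, n = 3), against 14.6 TPM for the median detected gene, from Tnfaip3 (A20, a ubiquitin-editing inhibitor of NF-κB) at 542 ± 96.1 TPM down to Traf3 at 7.34 ± 0.265 TPM. Of 25 NF-κB, IRF and MAP kinase genes further down, 24 were detected, with a median of 79.4 ± 9.22 TPM. Nfkbia, the IκBα gene, was the highest of them at 981 ± 170 TPM and Mapk8 (JNK1) the lowest detected at 3.68 ± 1.54 TPM, while Map2k6 averaged 0.163 ± 0.0208 TPM. All 17 genes that fold, move or cleave the receptors were detected, with a median of 85.2 ± 2.26 TPM, from the protease gene Ctsb at 10944 ± 1104 TPM down to Cnpy4, a relative of the receptor chaperone Cnpy3, at 6.66 ± 0.964 TPM.

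Differences between the replicates were common but mostly small. After low genes were removed, 39 of the 41 genes remained, without Tlr12 and Sigirr. Rates differed between replicates beyond counting noise in 37 of the 39 (94.9%), by a chi-square test on rounded counts with Benjamini-Hochberg adjustment over 11611 genes, against 77.5% of all genes tested. The exceptions were Ticam1 (adjusted p = 0.171) and Irak4 (adjusted p = 0.479). The chi-square test picks up smaller differences in genes with more counts. The median level of the 41 genes was 48.8 TPM, against 14.6 TPM for detected genes. The part of this higher level in the share called was not tested. Of the 37, 25 were less than 1.5-fold apart. By size, 12 of the 39 (30.8%) were more than 1.5-fold apart between the highest and lowest replicate, against 37.4% of all genes tested, so the share of pathway genes past this fold was near the background. Their median fold was 1.29, against 1.38 over all genes tested, and their median edgeR biological coefficient of variation was 0.185, against 0.213.

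Each of the replicates was the highest for some of these genes. Of the 39, replicates 1, 2 and 3 were the highest for 15, 12 and 12 and the lowest for 12, 15 and 12. Over the 11611 genes tested they were the highest for 31.6%, 37.8% and 30.6% and the lowest for 32.8%, 36.6% and 30.6%. The second deposited quantification gave the same highest and lowest replicate for 37 genes, the exceptions being Tlr7 and Irak4. The matching share over all genes tested is not given, so this count has no background. The 12 genes past 1.5-fold were Tlr5, Tlr9, Tlr11, Tlr13, Cd14, Ly96, Lbp, Cd180, Unc93b1, Ikbke, Chuk and Peli2, and 4 of them, namely Tlr5, Tlr9, Tlr11 and Peli2, were past 2-fold, against 12.8% of all genes tested.

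Tlr9 and Peli2 shared a low replicate 2. Tlr9 had 38.8, 18.9 and 42.1 CPM in replicates 1, 2 and 3, a 2.23-fold range, and Peli2 had 17.4, 7.39 and 19.5 CPM, a 2.64-fold range. Tlr5, Tlr11, Lbp and Peli2 were the only genes of the 39 above the upper quartile of all genes (0.274) in coefficient of variation, and the first 3 of these had at most 57 counts in any library. In replicate 2 the neutrophil markers also summed to 778 TPM, against 161 and 102 TPM in replicates 1 and 3. Most dendritic and stromal markers that passed the filter were highest there, and so was the median level of each list. By sum both lists were lowest there, but each sum was mostly a single gene. For the dendritic list this was Bst2, at 932, 520 and 686 TPM in replicates 1, 2 and 3. For the stromal and endothelial list it was Kdr, at 17.0, 7.52 and 18.8 TPM. The part of transcripts of other cells in the values of Tlr9 and Peli2, and in those of the other genes highest or lowest in replicate 2, was not tested.

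**Figure D3:**
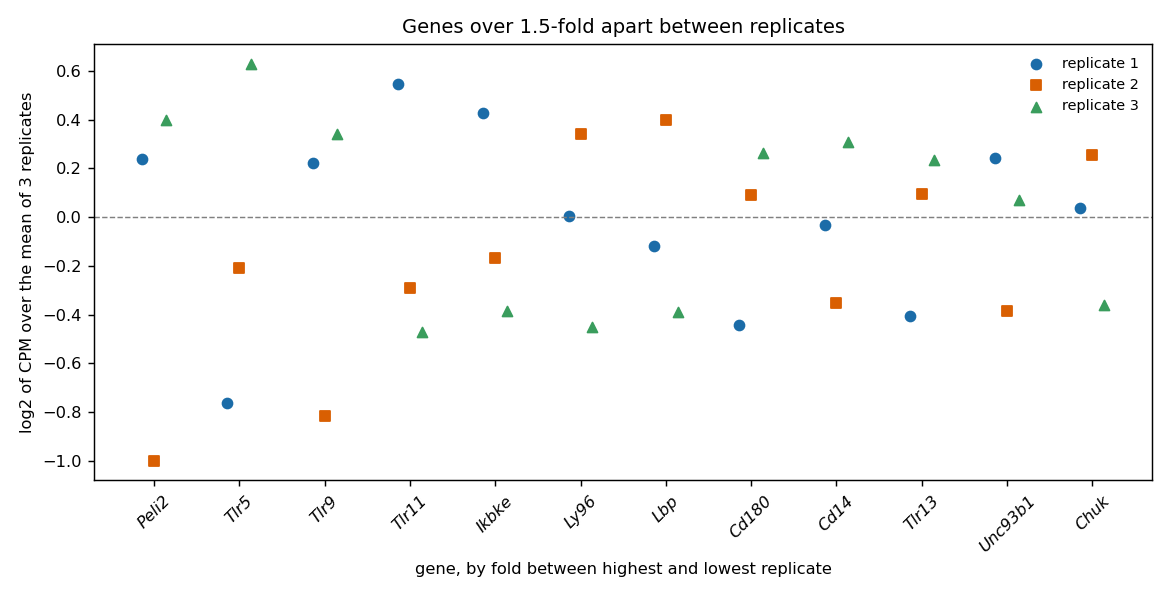
Log2 of CPM over the mean of the 3 replicates for the 12 genes more than 1.5-fold apart, a point for each replicate. Replicate 2 is the lowest for Peli2, Tlr9, Cd14 and Unc93b1 and the highest for Ly96, Lbp and Chuk.

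The genes differ in how their transcripts were assigned. Of the 36 detected genes, 19 had a transcript that held 90% or more of the gene's TPM, and in 9 the leading transcript held under 60%. The 9 were Tlr3, Tlr6, Tlr8, Irak1, Chuk, Ikbkb, Ikbke, Ikbkg and Map3k7. Shares of counts can differ from these shares of TPM. Chuk-201, Ikbkb-201 and Ikbke-201 held 67.0%, 78.6% and 72.1% of the counts of their genes in the mean, while Ikbkg-203 held 31.1%. Every leading transcript was annotated as protein-coding. For Tlr3 and Map3k7 the leading transcript differed between the quantifications.

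Tlr3-201 held 29.1%, 37.9% and 28.9% of Tlr3 in the alignment-based quantification, and 9.88%, 20.4% and 16.2% in the second. Tlr3-205 held 15.3%, 19.6% and 32.8%, and in the second quantification 43.2%, 40.9% and 53.5%. These transcripts differ in their first exon and also at the 3′ end, which lies at 45395665 and 45395878 on chromosome 8. They hold the same 2715 coding bases, so the annotated coding part is the same. Tlr8-201 held 34.3%, 38.3% and 32.0% of Tlr8 in the alignment-based quantification and 0% in every replicate of the second, which placed 74.5%, 73.0% and 71.0% on Tlr8-202. Again the coding part, of 3096 bases, is the same in both transcripts. For Map3k7, Map3k7-202 held 46.1%, 50.4% and 49.9%, close to Map3k7-201 at 43.7%, 45.2% and 44.2%, and the second quantification ranked them the other way round.

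In Tlr6 a short annotated transcript holds much of the level. Tlr6-202, of 446 bases, holds only the first 340 of 2418 coding bases and took 49.9%, 54.2% and 62.6% of the TPM of Tlr6, but 5.40%, 5.57% and 7.95% of its counts. Over transcripts of at least 0.5 times the length of the longest coding one, Tlr6 stood at 21.9, 18.5 and 17.5 TPM (19.3 ± 2.29, SD, n = 3) and the log2 ratio of Tlr2 to Tlr6 became 4.90, that of Tlr1 to Tlr6 2.41. The direction of both ratios was kept. The lead of Tlr6 over Tlr4 was not, since Tlr4 stood at 22.5, 18.1 and 20.7 TPM over its own long transcripts. This alternative was chosen after the data were seen.

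Irak3-201 held 84.6%, 53.9% and 77.7% of Irak3, and Irak3-205, whose coding part lacks the first 92 codons, 13.0%, 41.8% and 22.3%. In the second quantification Irak3-205 held 16.9%, 31.0% and 0%. The share was highest in replicate 2 in both quantifications, but they disagreed in replicate 3, so its value there depends on the quantification. Noncoding transcripts of Tmbim4 overlap its first exon on the opposite strand, and the strand setting was not given. The deposited posterior standard deviation of the Irak3 gene count was 0 in every replicate. In replicate 2 the level of Irak3-205 was 7.40 TPM in the alignment-based quantification, against 1.88 and 2.82 TPM in replicates 1 and 3.

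**Figure D4:**
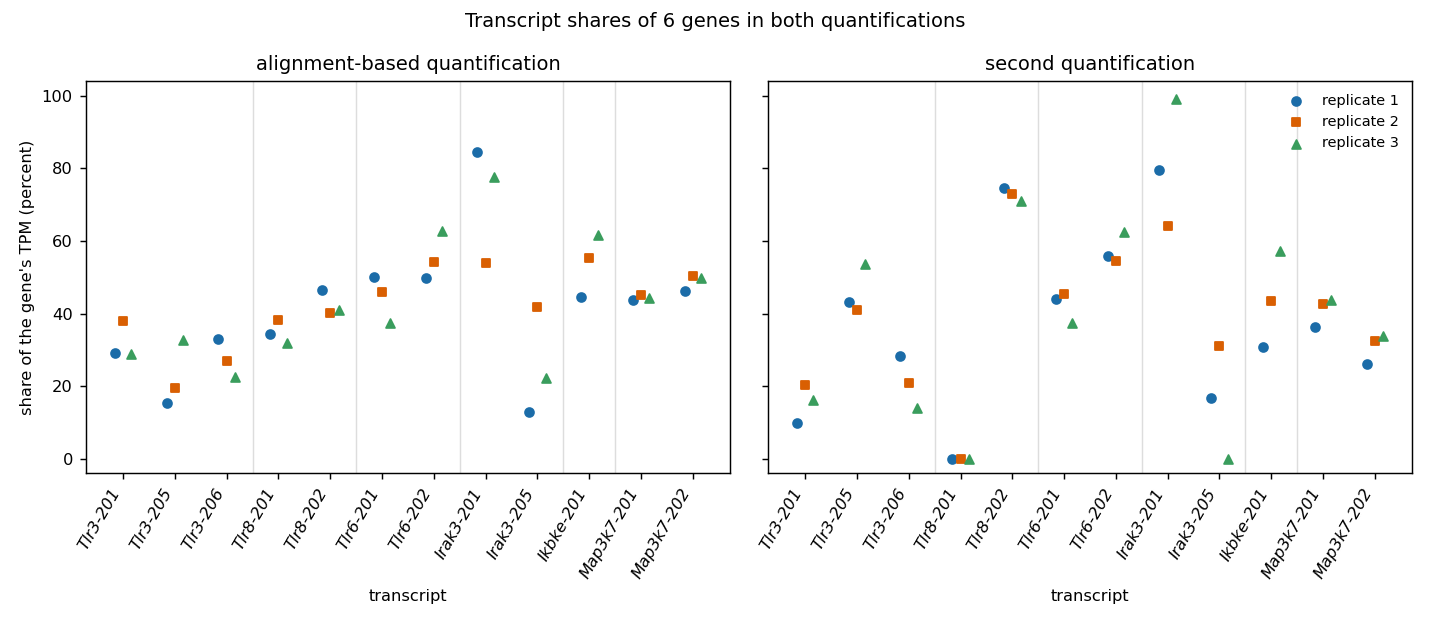
Share of the gene's TPM, in percent, held by named transcripts of Tlr3, Tlr8, Tlr6, Irak3, Ikbke and Map3k7 in the alignment-based quantification (left) and in the second one (right), a point for each replicate. Tlr8-201 lies at 0 in the second quantification and between 32.0% and 38.3% in the first.

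Transcripts annotated as retained intron took a sizeable part of the TPM of several kinases. In the alignment-based quantification they held 29.7%, 25.02% and 15.8% of the TPM of Ikbke in replicates 1, 2 and 3. Of the TPM of Chuk they held 27.0%, 21.2% and 13.4%. For Tbk1 the shares were 21.4%, 12.6% and 6.01%, for Irak1 18.5%, 14.5% and 9.46%, and for Ikbkb 13.5%, 10.1% and 4.84%. In these 5 kinase genes, named after their values were seen, replicate 1 was the highest and replicate 3 the lowest. Irak2, at 13.6%, 20.8% and 17.9%, was lowest in replicate 1, but this depends on the quantification. In the second quantification Irak2 stood at 27.8%, 23.6% and 15.3%, highest in replicate 1 and lowest in replicate 3. Irak4, at 7.40%, 3.74% and 8.06% in the alignment-based quantification, was highest in replicate 3 in both. The order of the 5 kinase genes is not particular to them in the alignment-based quantification. Over 5875 detected protein-coding genes with such transcripts the median share was 3.14%, 2.49% and 1.75%, and replicate 1 was the highest in 47.3% of these genes. Among the 22 genes of the pathway with such transcripts, the medians were 2.74%, 2.59% and 2.30%, and 10 were highest in replicate 1. The part of this difference between libraries in the levels of Ikbke and Tbk1, which were also highest in replicate 1 and lowest in replicate 3, was not tested. Over its long transcripts alone, Ikbke stood at 207, 151 and 126 TPM. Those long transcripts include the retained-intron transcript Ikbke-206 and leave out the protein-coding transcript Ikbke-202, of 549 bases. These values are therefore not Ikbke without retained introns. The shares above are of TPM, in which short transcripts weigh more than in counts. The retained-intron transcript Ikbke-205, of 797 bases, held 9.99% of the TPM of Ikbke in the mean but 2.42% of its counts. For Ikbke-206, of 5856 bases, the shares were 1.94% and 5.02%.

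**Figure D5:**
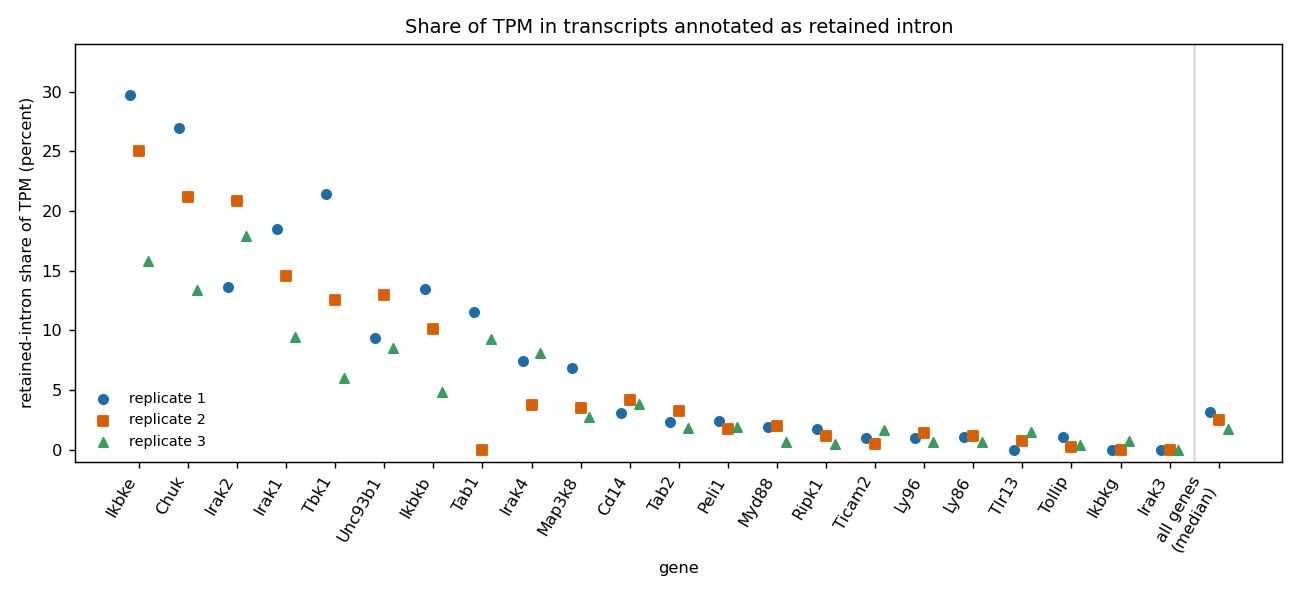
Share of TPM, in percent, in transcripts annotated as retained intron for the 22 genes of the pathway that have such transcripts, sorted by mean share, and the median over 5875 detected protein-coding genes at the right, a point for each replicate. Replicate 1 lies above replicate 3 for Ikbke, Chuk, Irak1, Tbk1 and Ikbkb and for the median of all genes.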

How the data were processed

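Per the text files deposited beside the tables, the authors quantified genes and transcripts from an alignment to the transcriptome, and transcripts again directly from the reads with an index, on mm10 with GENCODE M21. The aligner, the quantifiers and the strand setting were not given in the sources used here. The deposited tables hold expected or estimated counts, TPM, FPKM, a transcript's percent of its gene, and a posterior standard deviation of counts, per the file headers. The files keep each replicate apart.

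TPM was used as deposited, with 0.1 TPM added before logs. Fold changes on that scale understate those of low genes. FPKM, as deposited by the authors, entered a single alternative, the detection of genes at the same threshold. The deposited percent was recomputed from transcript TPM. Expected counts were rounded, scaled by TMM and filtered with edgeR 4.0.16 (filterByExpr, R 4.3.3), which also gave the coefficient of variation. Entries that are no mouse gene held 0.117%, 0.0993% and 0.082% of the counts and were left out. The chi-square test (SciPy 1.17.1) was tested on simulated data. DESeq2 1.42.0 size factors were an alternative. Every one of the 41 genes is named by role. Levels in each replicate are given for all receptors, accessory proteins, adaptors and IRAK kinases, for the extremes of the other roles and for genes of high spread. The genes, pairs and lists were chosen with earlier results of these data known. With 1 group, no comparison between conditions was made.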

Additional observations from a re-analysis of the deposited data

How the results depend on the processing

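The count of detected genes was 36 under the second quantification, FPKM and leaving out each replicate. It was 40 at a threshold of 0.1 TPM and 33 at 5 TPM. Shares of all protein-coding genes under these settings are not given, so these counts cannot be set against a background. Unequal rates between replicates were called for 37 genes with DESeq2 size factors (77.6% of all genes tested), 38 without the filter (49.6%) and 36 in the second quantification (77.7%). With replicate 1, 2 or 3 left out the count was 33, 26 or 29 (64.3%, 50.6% and 58.8% of all genes). By a range above 1.5-fold in CPM in place of the chi-square test the count was 12. The median coefficient of variation ranged from 0.161 to 0.211. A leading transcript at 60% or more was found for 27 genes in each quantification, but not for all the same genes. The leading share of Tlr7 fell from 64.5% to 41.6% in the second quantification, and that of Tlr8 rose from 42.4% to 72.8%. Of 167 values of the 24 pairs under these alternatives, 165 kept their side. The exceptions were 2 values of Ticam2 to Ticam1, whose log2 ratio ran from -0.091 to 0.18 with a replicate left out. A shift over 1.5-fold was seen in 4 values. With short transcripts left out, an alternative chosen after seeing the data, Tlr2 to Tlr6 was 4.90 and Tlr1 to Tlr6 was 2.41. Tollip to Sigirr was 5.08 with 1 TPM added and 5.19 in the second quantification. Leaving out a replicate of 3 also leaves fewer counts. No paired analysis was possible because there is a single group. Genes under about 10 counts in a library, such as Tlr12, are limited by depth.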
